A study of Homo sapiens with 30 samples.

Results

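The 8 genes described here encode menin, its chromatin tether, the MLL1 and MLL2 methyltransferases and the core subunits that all MLL-type methyltransferases share. They were taken by symbol (MEN1, PSIP1, KMT2A, KMT2B, ASH2L, WDR5, RBBP5 and DPY30) from a pooled CRISPR-Cas9 knockout screen of 737 chromatin genes, and all 8 had a row in the authors' deposited table. The screen was run in a pair of long-established human liver cancer lines, HLF and PLC/PRF/5, both made to express Cas9. The 30 libraries fall into 10 groups of 3. For each line there are initial and final libraries from a monolayer (2D) and from spheroids (3D), which were grown in 0.75% methylcellulose on surfaces that cells do not attach to. A further pair of final HLF 3D groups received DMSO, the vehicle, or SNDX-5613 (revumenib). Final libraries carry day 28 and initial ones day 0 in the labels, except the initial PLC/PRF/5 3D libraries, which carry no day. The labels name 5 µM SNDX-5613 and the text of the study names another dose for this screen, so the dose is unsettled. Cells of all groups carried the guide library and had been selected with puromycin for its vector.

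MLL1, the product of KMT2A, places methyl groups on lysine 4 of histone H3 at promoters, a mark of active transcription. Menin binds the N-terminal end of MLL1 or MLL2 and, together with LEDGF, the product of PSIP1, holds the enzyme on chromatin. ASH2L, WDR5, RBBP5 and DPY30 form a core that is needed for full methyltransferase activity and that also serves the SET1 and MLL3/MLL4 enzymes, which do not use menin. SNDX-5613 occupies the pocket of menin that takes up MLL1. The complex is best known from leukaemias with a rearranged KMT2A gene, in which menin inhibitors were developed.

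Each gene was knocked out with several guides, and 2 sets are shown: MEN1, whose product the compound binds, and WDR5, a shared core subunit. Full sets for KMT2A, KMT2B, RBBP5, DPY30 and PSIP1 were not at hand here. Guides are in lower case with the adjoining NGG motif that Cas9 needs in capitals.
MEN1 guide 1: ggcggcgatgatagacaggtCGG
MEN1 guide 2: gaggctgttccatatgacatCGG
MEN1 guide 3: ccaggcatgatcctcagacaGGG
MEN1 guide 4: gcgctgtgaccgcaagatggAGG
MEN1 guide 5: atgacctgggacatctggaaAGG
MEN1 guide 6: actcaccctctaccacaaggTGG
MEN1 guide 7: actgtcgcaaccgcaatgtgCGG
WDR5 guide 1: aaccatatctggtcacaagcTGG
WDR5 guide 2: agggaatatccgatgtagccTGG
WDR5 guide 3: gagacaataaggttggactgGGG
WDR5 guide 4: agtgagctggcaaagtcttgAGG
WDR5 guide 5: cagtactcacttgtccagcgTGG
WDR5 guide 6: cagtgcctgaagacgtacacTGG
WDR5 guide 7: cagaaactacaaggccacacAGG

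Each of the 14 sequences matched GRCh38 exactly at 1 place, and every cut fell in coding sequence. MEN1 guides 1 and 2 lie in exon 2 of the 10 exons of the reference transcript, at chr11:64809846-64809868 and chr11:64809723-64809745 on the plus strand. Guide 3 lies in exon 3 at chr11:64807996-64808018, also on the plus strand. Guides 4 to 7 lie on the minus strand in exons 4, 5, 6 and 7, at chr11:64807629-64807651, chr11:64807178-64807200, chr11:64807007-64807029 and chr11:64806276-64806298. Their cuts thus spread over 6 exons, between 13.5% and 54.6% of the way along the coding sequence. The WDR5 guides cut in 7 of 14 exons, between 25.9% and 89.8% of the coding sequence. In order, guides 1 to 4 lie at chr9:134141562-134141584 (exon 4, plus), chr9:134141947-134141969 (exon 5, plus), chr9:134142393-134142415 (exon 6, minus) and chr9:134142680-134142702 (exon 7, minus). Guides 5 to 7 lie at chr9:134154529-134154551 (exon 10, minus), chr9:134155690-134155712 (exon 12, plus) and chr9:134156572-134156594 (exon 13, plus). All guides of a gene enter 1 value, so they are not replicates of a condition.

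The 8 genes do not overlap in GRCh38. MEN1 is at chr11:64803516-64811294 and KMT2A at chr11:118436492-118526832, while WDR5 is at chr9:134135199-134159968 and PSIP1 at chr9:15464066-15510970. The remaining loci are chr19:35718003-35738878 for KMT2B, chr8:38105493-38140080 for ASH2L, chr1:205086142-205121978 for RBBP5 and chr2:32011649-32039835 for DPY30.

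The table holds, per gene and comparison, 1 Score and 1 FDR. The Score is minus the base 10 logarithm of the value that MAGeCK gives a gene from the ranks of its guides, below 0 where guides were depleted and above 0 where they were enriched. It measures evidence and not the size of a change in abundance, and it has no value per library, so no SD accompanies a single Score. A gene was called at an FDR under 0.05. Library counts were not analysed here, and the error used comes from the repeat of the HLF 3D screen with DMSO: across the 737 genes, the SD of the Score difference between both runs was 1.499. Differences of Scores below are set against this SD. It comes from HLF 3D runs alone, which also differ in DMSO and in the number tag of their columns. Whether both runs share initial libraries is not settled, since the labels list no separate ones and the supplement names them. If shared, the SD leaves out the spread between initial libraries. The other screens and the direct comparisons have no repeat, so whether the SD holds for them was not tested.

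MEN1, KMT2A and ASH2L were called depleted in all 4 screens without DMSO or inhibitor. WDR5, RBBP5, DPY30 and KMT2B were called in 3 of the 4, and PSIP1 only in the PLC/PRF/5 monolayer. Monolayer calls carry little weight here, because 68% of the 737 genes had one in HLF and 65.8% in PLC/PRF/5. In spheroids these shares were 27.1% and 23.7%. The monolayer calls of KMT2B were at ranks 366 and 448 from the lowest Score, and its other call was at rank 60 in PLC/PRF/5 3D. In HLF cells, MEN1 had a Score of -3.96 in the monolayer and -4.43 in spheroids, and in PLC/PRF/5 cells -4.33 and -3.07. In ranks counted from the lowest Score, it ran from 22 to 56 of 737, the narrowest range of ranks among the 8 genes. KMT2A had -2.38 and -2.79 in HLF and -4.77 and -4.60 in PLC/PRF/5, which put the methyltransferase at rank 165 in HLF 2D and at rank 8 in PLC/PRF/5 3D. ASH2L, the subunit that contacts the methyltransferase domain together with RBBP5, had -6.54 and -3.16 in HLF and -5.01 and -3.56 in PLC/PRF/5, with ranks from 5 to 50. It was thus the lowest of the 8 in both monolayers. KMT2A was lowest in PLC/PRF/5 3D, and MEN1 in HLF 3D.

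In HLF 2D, 7 of the 8 genes were called depleted, against 68% of all genes. This share says little by itself, because every one of the 501 genes with a Score below 0 was called there, down to a Score of -0.03. Ranks separate the subunits better: 4 of the 8 were among the 184 genes with the lowest Scores. ASH2L ranked 5, MEN1 56, WDR5 86 and KMT2A 165, while RBBP5 (Score -1.35), DPY30 (-1.15) and KMT2B (-0.59) ranked 257, 285 and 366. PSIP1 had a Score of 0.37 at an FDR of 1, the only Score above 0 that any of the 8 genes had against initial libraries.

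In HLF 3D, the FDR was more selective, and 6 of the 8 genes were called against 27.1% of all genes. MEN1 (FDR 7.4e-05), ASH2L (0.000211), KMT2A (0.000406) and WDR5 (Score -2.56, FDR 0.00105) led. DPY30 at -1.46 (FDR 0.0275) and RBBP5 at -1.21 (FDR 0.0496) were called close to the threshold. PSIP1 (-0.81, FDR 0.116) and KMT2B (-0.12, FDR 0.733) were not called. MEN1 lay below its fellow adaptor PSIP1, and KMT2A below its paralog KMT2B, by more than the SD of the repeat in both pairs. No member was called enriched here, against 1.09% of all genes.

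In PLC/PRF/5 2D, all 8 genes were called, against 65.8% of all genes, and 485 of the 488 genes below 0 were called as well. ASH2L, KMT2A, MEN1 and WDR5 (-3.32) ranked 10, 12, 22 and 46. The others were spread over ranks 192 to 448, with DPY30 at -1.58, RBBP5 at -0.97, PSIP1 at -0.93 and KMT2B at -0.26. The gap of 1.74 between WDR5 and DPY30 was the only one between neighbours in this screen that passed the SD of the repeat.

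In PLC/PRF/5 3D, 4 of the 8 genes were called, against 23.7% of all genes. These were KMT2A (FDR 0.000135), ASH2L (0.000135), MEN1 (0.000699) and KMT2B (-2.65, FDR 0.00245). WDR5 (-1.23, FDR 0.0964), PSIP1 (-1.08, 0.112), RBBP5 (-0.85, 0.175) and DPY30 (-0.73, 0.244) were not called. None of the 8 was called enriched, against 2.31% of all genes. The KMT2B value stands out among its own 4, because the paralog of KMT2A ranked 60 in this screen and 366 to 448 in the other three. In the direct 3D over 2D comparison of PLC/PRF/5, KMT2B had a Score of -0.995 at an FDR of 1. That comparison called only 0.136% of all genes lower, at a Score of -6.64, so the missing call does not show that the cultures were alike. The 3D Score minus the 2D Score of KMT2B against initial libraries was -2.39, larger in size than the SD of the repeat. Whether KMT2B differed between the cultures is thus not settled.

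**Figure D1:**
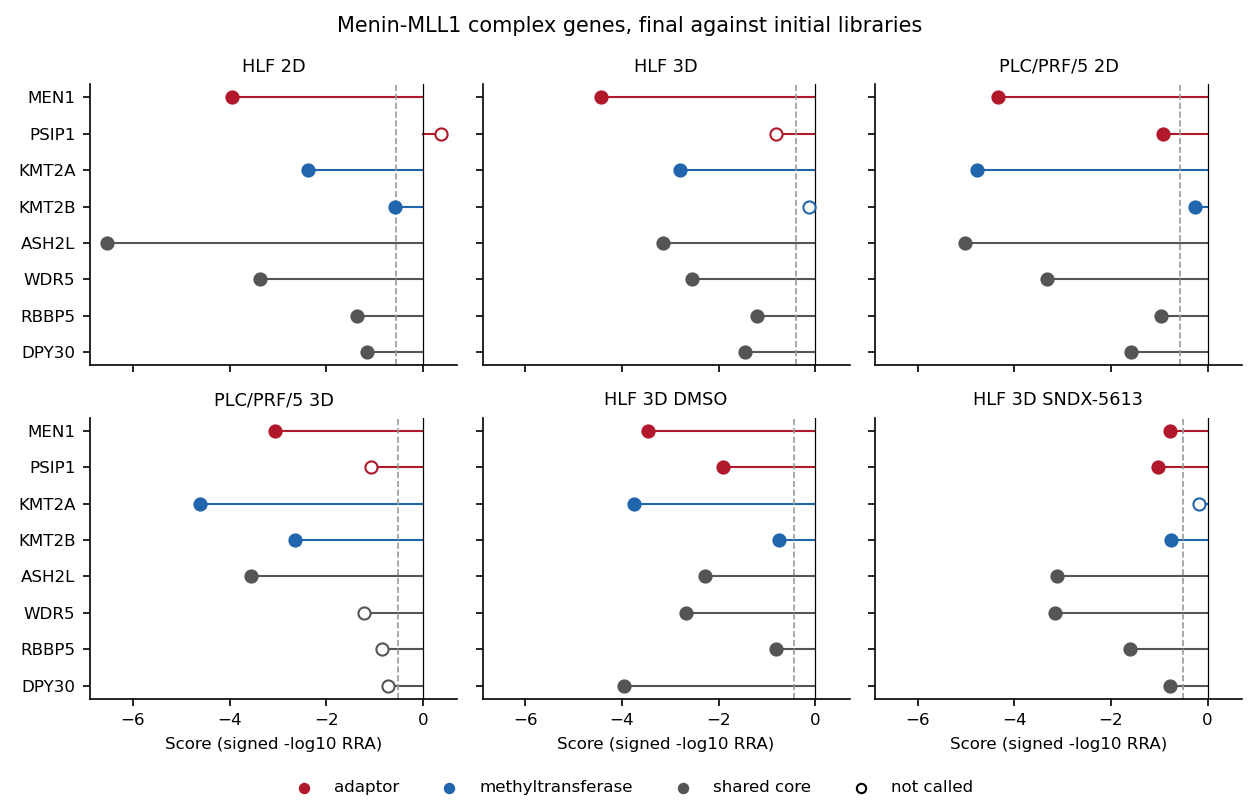
Scores (x axis, signed -log10 RRA) of the 8 genes (y axis) in the 6 comparisons of final with initial libraries, coloured by role, filled where the FDR was under 0.05 and open where not, with the median of all 737 genes as a dashed line. MEN1 lies at -3.07 or below in the first 5 panels and at -0.77 with SNDX-5613, and KMT2A goes from -3.75 with DMSO to -0.17 with SNDX-5613.

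Ordered by the median over the 4 screens, ASH2L came first at -4.29, followed by MEN1 (-4.14), KMT2A (-3.70), WDR5 (-2.94), DPY30 (-1.30), RBBP5 (-1.09), PSIP1 (-0.87) and KMT2B (-0.42). The first 3 medians lie closer together than the SD of the repeat. ASH2L took place 1 or 2 in each screen, MEN1 places 1 to 3, KMT2A 1 to 4 and WDR5 3 to 5. Among the others, RBBP5 took places 5 to 7, DPY30 5 to 8, PSIP1 6 to 8 and KMT2B 4 to 8. Neighbours in the order were mostly not separated: the gap passed 1.499 only between ASH2L and MEN1 in HLF 2D (2.58) and between WDR5 and DPY30 in PLC/PRF/5 2D, and in neither 3D screen. Counted over all 28 pairs of subunits, 20 differed by more than the SD in the HLF monolayer and 15 in HLF spheroids, and 17 in each culture of PLC/PRF/5.

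Among the shared core genes, ASH2L and WDR5, which anchors the methyltransferase to the core, had lower Scores than RBBP5 and DPY30 in all 4 screens. The gaps from WDR5 to RBBP5 and DPY30 were under the SD of the repeat in both 3D screens, and with DMSO, described below, DPY30 lay under ASH2L and WDR5. RBBP5 ran from -0.85 to -1.35, a range of ranks from 199 to 290. DPY30, the small subunit that docks on ASH2L, ran from -0.73 to -1.58. In PLC/PRF/5 3D, only ASH2L of the 4 core genes was called, whereas all 4 were called in both HLF cultures and in the PLC/PRF/5 monolayer. The median Score of the 8 genes in HLF was -1.87 in the monolayer and -2.01 in spheroids, where the medians of all 737 genes were -0.55 and -0.39. In PLC/PRF/5 it was -2.45 and -1.94, with -0.57 and -0.51 for all genes.

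**Figure D2:**
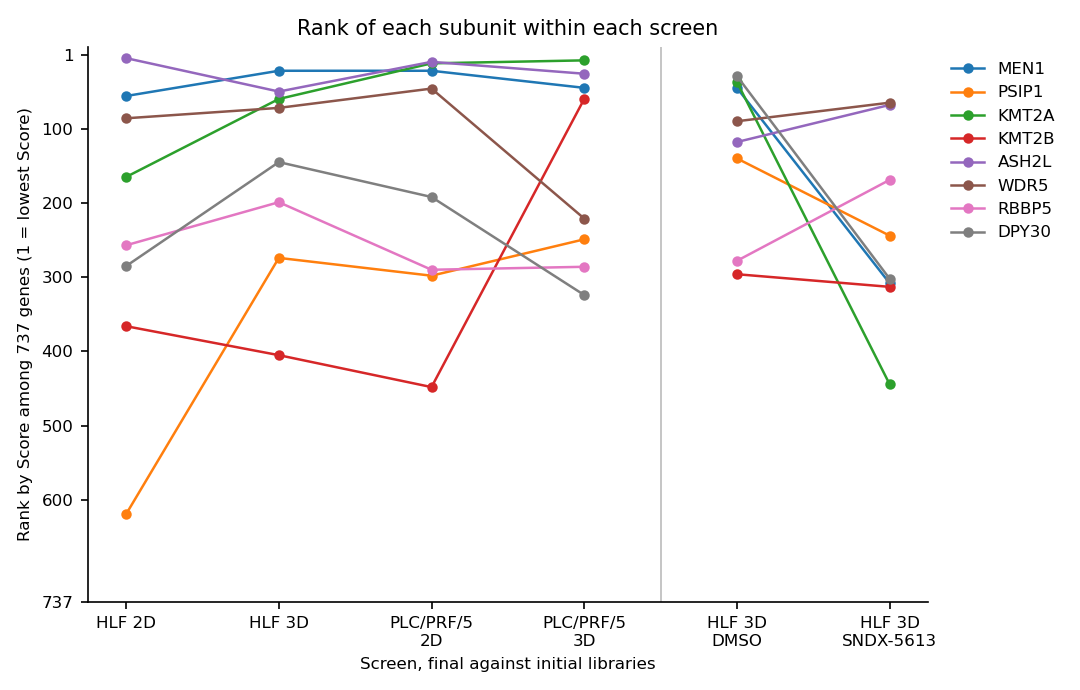
Rank of each gene by Score among 737 genes (y axis, 1 is the lowest Score) in the 6 comparisons of final with initial libraries (x axis), 1 line per gene, with the repeat and the inhibitor screen to the right of the grey line. ASH2L stays between ranks 5 and 50 in the 4 screens on the left, KMT2B reaches rank 60 only in PLC/PRF/5 3D, and MEN1, KMT2A and DPY30 drop to ranks 308, 444 and 302 with SNDX-5613.

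The vehicle arm of the inhibitor screen repeated HLF 3D culture in the presence of DMSO, and all 8 genes were called depleted there, against 41.5% of all genes. DPY30 (-3.96), KMT2A (-3.75) and MEN1 (-3.46) were at the lowest FDR of the screen, 4.3e-05, which 84 genes reached. WDR5 had -2.66 (FDR 0.000114), ASH2L -2.28 (0.000889), PSIP1 -1.90 (0.00147), RBBP5 -0.82 (0.0319) and KMT2B -0.75 (0.0419). For 7 of the 8 genes the repeat lay within 1 SD of the first screen, at 0.07 SD for WDR5 and 0.73 SD for PSIP1 at the extremes. That SD is taken from the same difference over all genes, and the share of all genes within it was not computed. Among the 8, DPY30 was the exception, with a Score lower by 2.51, or 1.67 SD, and a rank of 29 where the first screen had 145. The order of the subunits changed with it: ASH2L was in place 5 with DMSO and in place 2 without. None of the gaps between neighbours with DMSO passed the SD, and no member was called enriched, against 2.58% of all genes.

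**Figure D3:**
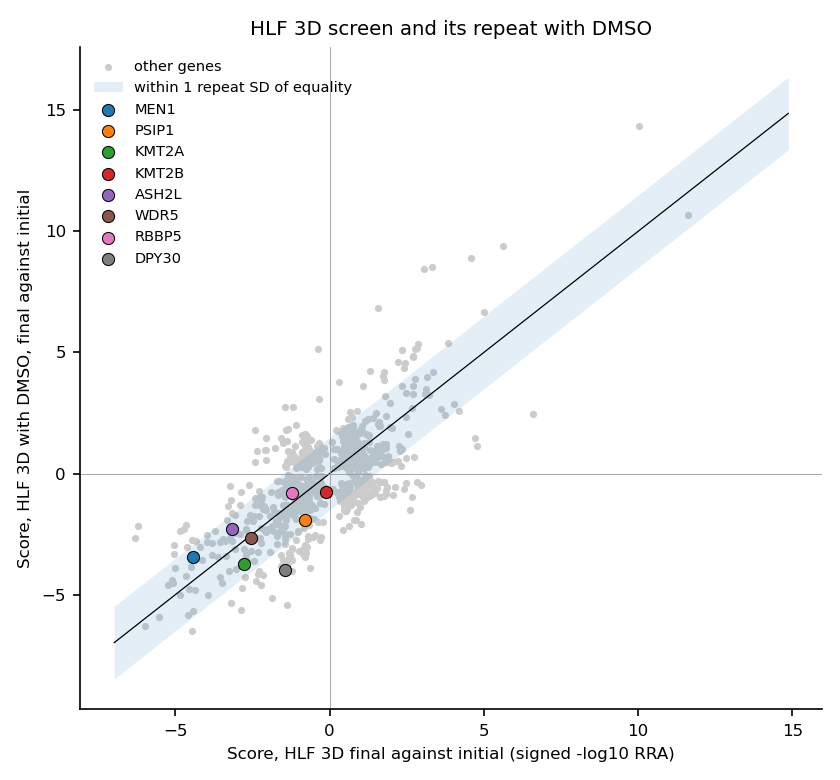
Score of each gene in HLF 3D (x axis) against its Score in the DMSO repeat (y axis), both signed -log10 RRA, for 737 genes, with the 8 genes coloured and a band of 1 SD (1.499) around equality. The DPY30 point lies below the band at -1.46 and -3.96, and the other 7 points lie inside it.

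Final 3D and 2D libraries were compared directly to ask whether a knockout was better or worse tolerated in spheroids. None of the 8 genes was called in HLF, where 12.2% of all genes were called higher in 3D and 0% lower, and none in PLC/PRF/5, where 7.06% were called higher and 0.136% lower. In HLF, all 4 shared core genes were above 0, with ASH2L at 1.80 (FDR 0.0687), WDR5 at 1.34 (0.165), DPY30 at 1.25 (0.238) and RBBP5 at 1.07 (0.304). Both adaptors and both methyltransferases were below 0, with PSIP1 at -1.88, KMT2A at -1.24, MEN1 at -0.83 and KMT2B at -0.36, each at an FDR of 1. Of all 737 genes, 56.6% had a Score above 0 in this comparison. The sign depended on the measure for DPY30 and KMT2B, whose 3D Scores minus 2D Scores against initial libraries were -0.31 and 0.46.

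In PLC/PRF/5, MEN1 (-1.21), KMT2B (-0.995), ASH2L (-0.99), RBBP5 (-0.65), KMT2A (-0.51) and DPY30 (-0.37) were below 0 at an FDR of 1. PSIP1 (0.87, FDR 0.807) and WDR5 (1.22, FDR 0.531) were above it. For ASH2L, the 3D Score minus the 2D Score was 3.38 in HLF and 1.45 in PLC/PRF/5, so in PLC/PRF/5 its sign depended on the measure. That difference was also above 0 for MEN1 (1.26), KMT2A (0.17), RBBP5 (0.11) and DPY30 (0.85) and below 0 for PSIP1 (-0.15), each opposite to the direct Score. No direction is given for these genes. For KMT2B (-2.39) and WDR5 (2.09) the difference had the sign of the direct Score and exceeded the SD of the repeat in size, but neither gene was called. The difference between lines was not tested. The PLC/PRF/5 2D and 3D columns carry different number tags of unstated meaning while the HLF 2D and 3D columns share one. In PLC/PRF/5 the culture and whatever the tag marks thus cannot be told apart. The HLF columns with DMSO or inhibitor carry another tag than HLF 3D, so the same holds where they are set against that screen.

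With SNDX-5613 in the medium, the 8 genes divided. Guides against MEN1 and KMT2A, the pair whose products the compound keeps apart, had Scores nearer to 0 than with DMSO. They were called higher in the direct comparison given below, as were those against the core gene DPY30. The Scores of ASH2L and WDR5 differed between the arms by less than the SD of the repeat. All of the 8 genes but KMT2A were called depleted in both arms. Against initial libraries, KMT2A had a Score of -0.17 (FDR 0.254) with the inhibitor and -3.75 with DMSO. MEN1 had -0.77 (FDR 0.0176) and -3.46, and its rank went from 45 to 308. DPY30 had -0.78 (FDR 0.0176) and -3.96. These 3 genes had the 3 lowest Scores of the 8 with DMSO and were at places 5, 6 and 8 of the 8 with the inhibitor.

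WDR5 had -3.16 with the inhibitor and -2.66 with DMSO, and ASH2L -3.12 and -2.28, all 4 values called depleted. The remaining genes had Scores with the inhibitor of -1.60 for RBBP5 (FDR 0.000978), -1.03 for PSIP1 (0.00684) and -0.75 for KMT2B (0.0194). In all, 7 of the 8 genes were called depleted with SNDX-5613, against 51% of all genes, and only KMT2A was not. None was called enriched, against 3.53% of all genes. The median of the 8 was -0.91, nearer to that of all genes (-0.52) than in any of the other 5 comparisons with initial libraries. The gap of 1.52 between ASH2L and RBBP5 was the only one between neighbours that passed the SD.

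**Figure D4:**
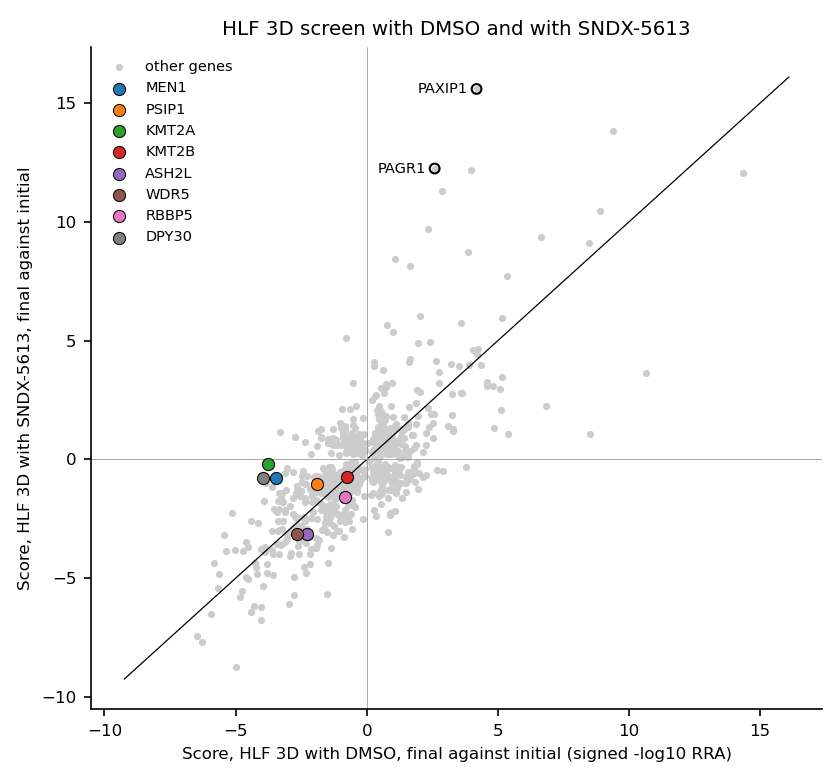
Score with DMSO (x axis) against Score with SNDX-5613 (y axis), both final against initial HLF 3D libraries (signed -log10 RRA), for 737 genes, with the 8 genes coloured, PAXIP1 and PAGR1 ringed and the line of equality drawn. MEN1, KMT2A and DPY30 lie together above the line, between -3.96 and -3.46 with DMSO and between -0.78 and -0.17 with SNDX-5613, while ASH2L and WDR5 lie just below it.

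The labels list no separate initial libraries for the inhibitor and DMSO arms, whose columns share a number tag of unstated meaning. Both arms were therefore taken to share their initial libraries, and the test of the difference is the direct comparison of their final libraries. MEN1 (Score 6.91) and KMT2A (5.87) were called higher with SNDX-5613, both at an FDR of 0.000456, the lowest in the comparison, which 8 genes reached. They ranked 3 and 5 from the highest of 737 genes. DPY30 was called too, at 2.84 (FDR 0.0245, rank 24), not far above the weakest call at 2.54. In all, 3 of the 8 genes were called higher, against 4.07% of all genes, and none lower, against 0.543%. PSIP1 (2.05, FDR 0.183), RBBP5 (1.19, 0.310), ASH2L (0.98, 0.420), WDR5 (0.70, 0.591) and KMT2B (-0.40, 0.990) were not called. Thus 7 of the 8 genes had Scores above 0, against 50.2% of all genes, and the median of the 8 was 1.62 against 0.05. MEN1 and KMT2A differed by less than the SD of the repeat, and the gap of 3.03 between KMT2A and DPY30 exceeded it.

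KMT2A and its paralog were thus far apart in the direct comparison. KMT2B was the only one of the 8 below 0, and its Scores against initial libraries were -0.75 with DMSO and -0.75 with the inhibitor. Taken as the inhibitor Score minus the DMSO Score, the differences were 3.57 for KMT2A, 3.19 for DPY30 and 2.69 for MEN1, ranks 19, 20 and 32 from the highest. PSIP1 had 0.87 and KMT2B 0.01. WDR5 (-0.49), RBBP5 (-0.78) and ASH2L (-0.83) had differences below 0 although their Scores in the direct comparison were above 0, so for these 3 core genes the sign depends on the measure and no direction is given.

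The DPY30 difference depended on the screen used as base. Set against the HLF 3D screen instead of its repeat with DMSO, a base chosen after the data were seen, the difference was 0.68 for DPY30, less than the SD of the repeat, and 3.66 for MEN1 and 2.62 for KMT2A. The HLF 3D screen does not enter the direct comparison. Of the 200 genes it called depleted, 12 (6%) were called higher with SNDX-5613 than with DMSO, against 18 of the other 537 (3.35%). MEN1, KMT2A and DPY30 were 3 of these 12. Others, named after their values were seen, were SIN3A, KAT7, SUZ12, SUPT6H, RBBP4, TAF6, CDK9 and KAT8. They come from several complexes, among them Polycomb (SUZ12 and RBBP4), the acetyltransferase complexes of KAT7 and KAT8 and the machinery of transcript elongation (SUPT6H and CDK9).

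The genes of related complexes were counted in the same comparisons, and 43 of 48 listed genes were in the table. Their counts of depleted genes stand against 68% and 65.8% of all genes in the HLF and PLC/PRF/5 monolayers and against 27.1% and 23.7% in the spheroids. The COMPASS subunits outside the 8 genes, which belong to the SET1 and MLL3/MLL4 enzymes, had 10 of 11 genes called depleted in both monolayers, 3 in HLF spheroids and 4 in those of PLC/PRF/5. Their median Scores were -1.70 and -2.53 in the monolayers of HLF and PLC/PRF/5, and 0.82 and 0.71 in spheroids. The medians of the 8 menin-MLL1 genes, given above, were below 0 in each of these screens. In the direct comparison of 3D with 2D, 5 of the 11 were called higher in HLF and 4 in PLC/PRF/5, against 12.2% and 7.06% of all genes. HCFC1, a cell cycle factor that associates with SET1 and MLL enzymes, had the lowest median of the list over the 4 screens (-4.77).

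PAXIP1, a subunit particular to the MLL3/MLL4 complexes, had the highest median (1.04), from Scores of -1.28 and -2.40 in the monolayers of HLF and PLC/PRF/5 and of 3.36 and 6.28 in their spheroids. With SNDX-5613 its Score against initial libraries was 15.60, and in the direct comparison with DMSO it was 12.12, the highest of all 737 genes. PAGR1, its binding partner, reached 12.25 against initial libraries and 6.83 in the direct comparison, between MEN1 and KMT2A. Both were called enriched against initial libraries with the inhibitor, where MEN1 and KMT2A had Scores of -0.77 and -0.17. No other gene of this list was called in the inhibitor comparison.

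Of the NSL acetyltransferase complex, which shares WDR5, 7 of 7 genes were called depleted in each monolayer, where nearly every Score below 0 was called, 3 in HLF spheroids and 4 in PLC/PRF/5 spheroids. MCRS1 had the lowest median over the 4 screens (-5.32) and the reader PHF20 the highest (0.15). In the inhibitor comparison, the catalytic subunit KAT8 was called higher at 2.54, although its Scores against initial libraries were -4.61 with DMSO and -4.94 with the inhibitor, and the median of the list was -0.59. The MOZ, MORF and HBO1 acetyltransferase genes had 9 and 8 of 10 called depleted in the HLF and PLC/PRF/5 monolayers and 4 and 6 in the spheroids. Only KAT7, the catalytic subunit of HBO1, was called in the inhibitor comparison (4.15). BRPF3 had the lowest median of this list (-2.31) and KAT6B, which encodes MORF, the highest (-0.02).

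The genes of DOT1L and of transcript elongation had 8 and 7 of 9 called depleted in the HLF and PLC/PRF/5 monolayers and 3 and 4 in the spheroids. The kinase CDK9 had the lowest median (-4.04) and MLLT10, the DOT1L cofactor, the highest (-0.47). LEO1, a subunit of the PAF1 complex, was called lower with SNDX-5613 than with DMSO (-6.34), from a Score of 8.53 with DMSO and 1.06 with the inhibitor, and CDK9 was called higher (2.76). The enzymes that remove methyl groups from lysine 4, listed together with RCOR1, the scaffold of the KDM1A complex, had 5 and 4 of 6 called depleted in the monolayers and 1 and 0 in the spheroids, where 1 and 3 were called enriched. KDM1A had the highest median (1.92) and KDM5B the lowest (-0.51), and no gene of this list was called in the inhibitor comparison, in which KDM1A had the largest Score (1.94). In the direct inhibitor comparison, 3 of the 8 menin-MLL1 genes were called higher, against 4.07% of all genes. The lists had 2 of 11 (other COMPASS), 1 of 7 (NSL), 1 of 9 (DOT1L and elongation), 0 of 6 (demethylases) and 1 of 10 (MOZ, MORF and HBO1). The genes and lists were chosen with earlier results known, so their counts are not ranked.

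**Figure D5:**
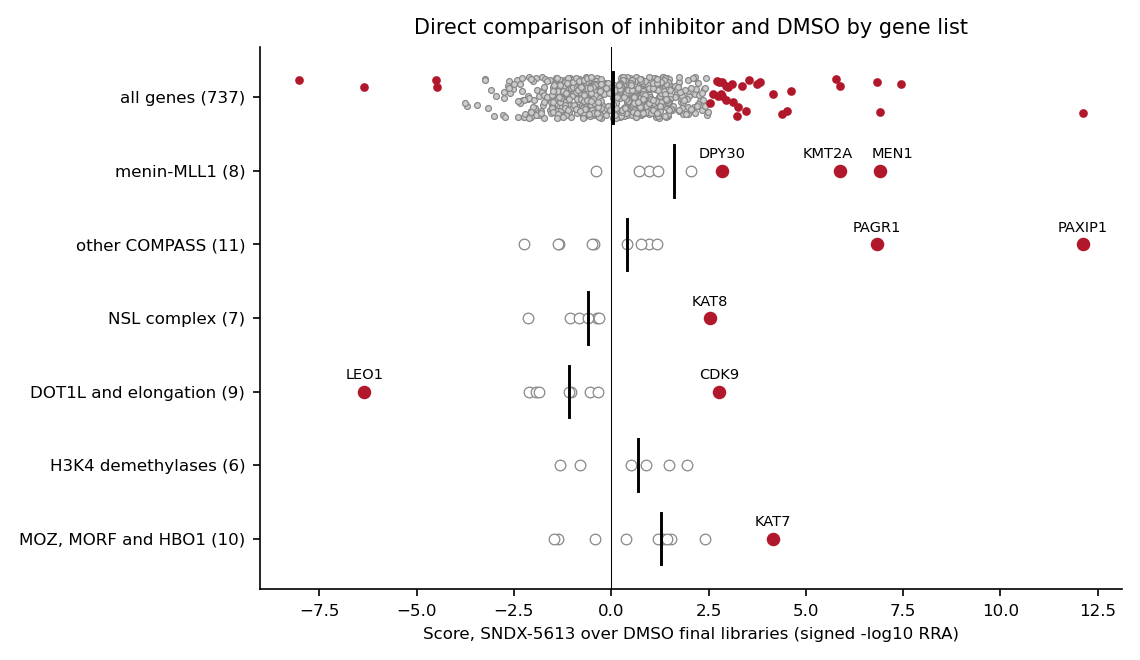
Score in the direct comparison of SNDX-5613 with DMSO final HLF 3D libraries (x axis, signed -log10 RRA) by gene list (y axis, number of measured genes in brackets), with called genes filled in red, others open and list medians as vertical bars. MEN1 (6.91), KMT2A (5.87) and DPY30 (2.84) are called in the menin-MLL1 row, whose median of 1.62 lies above that of all genes (0.05).

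The pattern of each gene over the 9 Scores was also set against all other genes, as a description without a test, since the 9 comparisons share libraries. The gene most like MEN1 of all 736 others was KMT2A, with a Pearson r of 0.950. Outside the 8 genes, SUZ12 (0.948), CUL2 (0.941), MEAF6 (0.909), SUPT6H (0.896) and SS18L2 (0.890) came next. This nearness leans on the inhibitor comparison: over the 8 Scores without it, a choice made after the data were seen, KMT2A was in place 12 with an r of 0.794, and over the 6 comparisons with initial libraries in place 57 with 0.693. By Spearman's rho over all 9, it was in place 16 (0.783). Of the other subunits, DPY30 had an r of 0.810 with MEN1 (place 35 of 736), RBBP5 0.733 (65) and ASH2L 0.690 (87). PSIP1 had 0.647 (110), WDR5 0.611 (132) and KMT2B 0.117 (359). Many genes outside the 8 were thus nearer to MEN1 than these subunits.

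Outside the 8 genes, those most like KMT2A included MEAF6 (0.944), CUL2 (0.896), TAF6L (0.889) and BRPF1 (0.879). ASH2L was most like SMARCA2 (0.975), CDK7 (0.954), EXOSC6 (0.942), RUVBL2 (0.942) and HCFC1 (0.939). Within the core, ASH2L correlated with WDR5 at 0.863 and with RBBP5 at 0.855, and WDR5 with RBBP5 at 0.806, each above the r of the same genes with MEN1. DPY30 went the other way, with 0.618 to ASH2L, 0.702 to WDR5 and 0.752 to RBBP5 against 0.810 to MEN1. The 5 genes nearest to ASH2L and those nearest to MEN1 had no name in common. Lists of 5 drawn from 737 genes would seldom share a name, and 0 of the 5 for MEN1 were kept by Spearman's rho. Nothing is therefore read from this.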

How the data were processed

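The authors counted guides in 30 libraries and compared groups with MAGeCK, using guides without a target as controls. The sources used here do not name its version or the build behind the guides. They deposited 1 table of 737 genes with 9 comparisons, each with a Score (signed -log10 of the RRA value) and an FDR, the deposited p-value after MAGeCK's adjustment over genes. The columns "2D_vs_3D" were read as 3D over 2D, because across genes they correlated with the 3D minus 2D Score at 0.883 in HLF and 0.879 in PLC/PRF/5 (inhibitor minus DMSO, 0.777). Library counts were not analysed here, so depth is unknown here, and neither intervals nor the spread between libraries are given. Nothing in the labels says whether the 3 libraries of a group came from separate cultures. They list 1 group of initial HLF 3D libraries, while the headers of a count table in the supplement name separate ones for the inhibitor screen.

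From these values, calls (FDR under 0.05), ranks, differences and Pearson correlations were computed with pandas 2.3.3 and numpy 2.4.6 in Python 3.11.15. The calling rule, the correlations and a rescaling of the Scores were tested on simulated data, and the other steps were not. Guide sequences of MEN1 and WDR5 came from the study's library table and were matched exactly to both strands of GRCh38, with exons from GENCODE and gene positions from RefSeq. The members and the 5 lists were chosen with earlier results of these data known. All 8 members are named throughout, and for each list the genes with the lowest and highest median Score over the 4 screens and the largest inhibitor Score, and called genes of a list, chosen after their values were seen. For MEN1, KMT2A and ASH2L the 5 most similar genes outside the 8 are named, apart from results that are not reported here. Listed genes without a row (5 of 48) were not analysed here. Alternatives were stricter and looser FDR thresholds, a minimum Score, 6 members without KMT2B and PSIP1, means, order by FDR, other scalings of the Scores and other measures of likeness.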

Additional observations from a re-analysis of the deposited data

How the results depend on the processing

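No paired analysis was possible because the deposited table holds 1 value per comparison and none per library, and counts per library were not analysed here. For the same reason no library was left out, and depth was not assessed. The FDR in the monolayer screens called almost every Score below 0, so counts there depend on the rule: taking the 184 genes with the lowest Scores, a rule added after the data were seen, gave 4 of the 8 genes in HLF 2D in place of 7 and 4 in PLC/PRF/5 2D in place of 8, and a minimum Score of 1 gave 5 in PLC/PRF/5 2D. With SNDX-5613, the count of 7 became 4 at an FDR under 0.01, 4 with a minimum Score of 1 and 3 among the 184 lowest Scores. At an FDR under 0.10, 1 gene (ASH2L) was called higher in HLF 3D than in 2D, where none had been. Ordered by FDR, in which ties share a place, MEN1 was in place 4 in HLF 2D, 4 in PLC/PRF/5 2D, 2 with DMSO and 3.5 in the PLC/PRF/5 comparison of 3D with 2D. With the HLF 3D screen as base, the DPY30 difference fell to 0.68. Of the 5 genes most like MEN1, 0 were kept by Spearman's rho, 0 over the 6 comparisons with initial libraries and 1 over 8 Scores without the direct inhibitor comparison. With that base, the differences of PSIP1 (-0.23), KMT2B (-0.62) and ASH2L (0.04) changed sign, each smaller than the SD of the repeat. No member median changed sign under the alternatives run. Counts were made within a fixed direction, so they could not change it.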
